A study of Homo sapiens with 9 samples.

Results

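The 10 genes ANLN, ECT2, RACGAP1, PRC1, AURKB, BIRC5, NEK2, SPAG5, TPX2 and ASPM encode proteins that build the mitotic spindle, correct its attachments and divide the cell. They were taken by symbol, each matched 1 Ensembl identifier, and together they are 10 of the 57905 genes in the table of counts. All 10 passed the filter on low counts, as did 13252 genes in all, and every library held at least 49 counts of each of them.

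RNA was sequenced from KYSE180, a line grown from a human squamous carcinoma of the esophagus. The series title calls it KDM6A-deficient; KDM6A removes the histone mark that EZH2, the methyltransferase of Polycomb repressive complex 2, writes. All cells had received 6 Gy of ionizing radiation. The groups were a first hairpin against EZH2 (shEZH2#1), another hairpin against EZH2 (shEZH2#3) and a luciferase control hairpin (shluc), with 3 libraries each. The comparison asks what lowering EZH2 does to transcription in these irradiated cells. All groups share 1 cell line and the irradiation, and unirradiated cells were not analysed here. A genotype label calls the EZH2 libraries knockouts, whereas the titles and design text speak of hairpins; the groups follow the titles. No label says that the libraries of a group came from separate cultures, so p-values measure only how these libraries vary, and that variation may be technical.

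Library totals ran between 14958011 and 21152006 estimated counts. Levels are in CPM, the count scaled to a common library size with TMM factors, in which 1 count was worth 0.0399 to 0.0735. A pair of very abundant unnamed genes held 15.8 to 22.6% of a library with shEZH2#1, 5.97 to 11.6% with shEZH2#3 and 6.96 to 9.28% with shluc. EZH2 stood at 11.6, 11.4 and 7.28 CPM with shEZH2#1 and at 9.67, 11 and 9.11 CPM with shEZH2#3, against 18.4, 20.1 and 19.5 CPM with shluc. EZH2 thus fell by 0.94 ± 0.18 (log2, SE; adjusted p = 0.00163) and fell by 0.96 ± 0.18 (adjusted p = 0.000433) with the 2 hairpins. Of 12 squamous epithelial markers, 4 were above 1 CPM in all 9 libraries. KRT17 was the highest of them, at 960 to 1570 CPM, while KRT5, KRT14 and SOX2 stayed below 1 CPM in every library. The summed squamous markers lay at 1370 to 1650 CPM with shEZH2#1, at 1170 to 1370 CPM with shEZH2#3 and at 1100 to 1390 CPM with shluc. The leukocyte markers PTPRC, CD3E and NKG7, the fibroblast markers COL1A2 and PDGFRA and the endothelial marker KDR had 0 counts in every library. Summed over the whole lists, 7 fibroblast markers lay at 53.9 to 62.4 CPM with shEZH2#1, 79.5 to 118 CPM with shEZH2#3 and 59.5 to 68.3 CPM with shluc. The 7 leukocyte markers lay at 16.3 to 20.3, 25.4 to 30.7 and 18.7 to 22.2 CPM in shEZH2#1, shEZH2#3 and shluc, and 4 endothelial markers at 7.97 to 8.47, 28.4 to 32.8 and 14.1 to 19.9 CPM. The part of these markers in the results was not tested.

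As background, the chromosomal passenger complex joins the kinase Aurora B (AURKB) to survivin (BIRC5), borealin (CDCA8) and INCENP. It moves from centromeres, where it releases wrong attachments, to the spindle midzone. In the early mitotic spindle, TPX2 activates Aurora A and promotes microtubule growth near chromosomes, astrin (SPAG5) and ASPM act at kinetochores and spindle poles, and the kinase NEK2 separates the centrosomes. After anaphase starts, PRC1 bundles the overlapping microtubules of the midzone. RACGAP1, in the centralspindlin complex, recruits the exchange factor ECT2. ECT2 switches on RhoA, and anillin (ANLN) ties actin, myosin and septins into the ring that pinches the cell in 2. Transcripts of such genes peak in G2 and mitosis, and the cell cycle genes homology region (CHR) and CCAAT boxes are known promoter elements of this class. In bulk RNA, fewer cells in G2 and mitosis and less RNA per cell cannot be told apart.

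Promoters are shown because 9 of the 10 members fell with shEZH2#3 and this class of gene is known for these elements. RefSeq (GRCh38.p14) gave 9 promoter entries for 7 of the 10 genes; BIRC5, RACGAP1 and TPX2 are named only. The 250 bases before each RefSeq start were searched on both strands for the CHR letters TTTGAA or TTCGAA and for CCAAT, and no CHR match overlapped a CCAAT match. The CHR letters were present for 4 of the 7 genes and CCAAT for 5, with both for ASPM, ECT2 and PRC1. Among 35116 promoter windows of the same length, 14.3% held the CHR letters, 32.0% held CCAAT and 5.05% held both. The last 120 bases before the start follow, 5′ to 3′ on the gene's strand, for the genes with both motifs and for ANLN and NEK2, with matched letters in capitals.
ANLN, chr7:36389742-36389861, plus strand: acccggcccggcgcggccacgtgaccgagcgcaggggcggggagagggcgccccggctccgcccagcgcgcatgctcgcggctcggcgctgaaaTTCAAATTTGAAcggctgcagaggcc
PRC1, chr15:90994536-90994655, minus strand: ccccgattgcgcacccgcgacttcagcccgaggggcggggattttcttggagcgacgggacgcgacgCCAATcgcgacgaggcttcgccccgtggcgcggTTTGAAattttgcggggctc
ECT2, chr3:172750606-172750725, plus strand: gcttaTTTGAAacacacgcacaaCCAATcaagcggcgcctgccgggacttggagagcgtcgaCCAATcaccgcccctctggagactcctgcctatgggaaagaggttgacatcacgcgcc
ASPM, chr1:197146670-197146789, minus strand: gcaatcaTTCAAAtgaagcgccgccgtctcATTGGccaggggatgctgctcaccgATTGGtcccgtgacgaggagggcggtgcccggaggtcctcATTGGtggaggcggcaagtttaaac
NEK2, chr1:211675622-211675741, minus strand: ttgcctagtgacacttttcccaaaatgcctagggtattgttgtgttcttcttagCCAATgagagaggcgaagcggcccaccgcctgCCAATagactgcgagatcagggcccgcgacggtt
Counted back from the RefSeq start, PRC1 had CHR letters at positions -20 to -15 and CCAAT at -53 to -49. In ANLN a pair of CHR matches stood end to end, at -26 to -21 and -20 to -15. ECT2, in the first of its 2 entries, had CHR letters at -115 to -110 and CCAAT at -97 to -93 and -58 to -54. ASPM had CHR letters at -113 to -108 and 4 CCAAT matches, read as ATTGG, of which 3 are printed. NEK2 had CCAAT at -66 to -62 and at -34 to -30. AURKB had CCAAT farther out, and neither motif was found in the SPAG5 window. These matches are letters in a window and were not tested as sites. By the gene coordinates of GENCODE 29, the printed PRC1 window lies wholly inside the gene and the other printed windows run past its start.

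With shEZH2#1, 7 of the 10 genes fell against shluc, and with shEZH2#3, 9 of the 10 fell; none rose. Among all tested genes, 19.0% were called with shEZH2#1 (7.89% lower, 11.2% higher) and 44.2% with shEZH2#3 (19.8% lower, 24.4% higher). The balance of directions over all genes depended on the scaling: it was 28.1% lower and 18.3% higher for shEZH2#3 with upper quartile scaling, and 10.4% lower and 7.92% higher for shEZH2#1 with the GC and length offset described below. The calls used edgeR's quasi-likelihood test at a Benjamini-Hochberg adjusted p below 0.05, and all adjusted p-values below are from it. The median log2 fold change over the 10 genes was -0.66 with shEZH2#1 and -1.26 with shEZH2#3, against -0.07 and -0.01 over all tested genes. The 2 comparisons share the 3 shluc libraries, so they are not independent. With the mean of both hairpins against shluc, 9 fell, where 36.3% of all genes were called, 16.6% lower and 19.6% higher (22.5% and 17.2% with upper quartile scaling). In 8 of the 10 genes every shEZH2#1 library lay below every shluc library, as for 18.9% of all genes. In 9 this held for shEZH2#3, as for 26.0% of all genes. In 8 it held for all 6 libraries, against 9.54% of all genes. The count of 7 with shEZH2#1 became 4 without shEZH2#1 replicate 3, where 2.88% of all genes were called lower. It also became 4 without shluc replicate 2, where 4.8% were. It was 5 (ANLN, BIRC5, NEK2, SPAG5 and TPX2) when the abundant unnamed genes were left out of the fit, where 5.81% were.

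**Figure D1:**
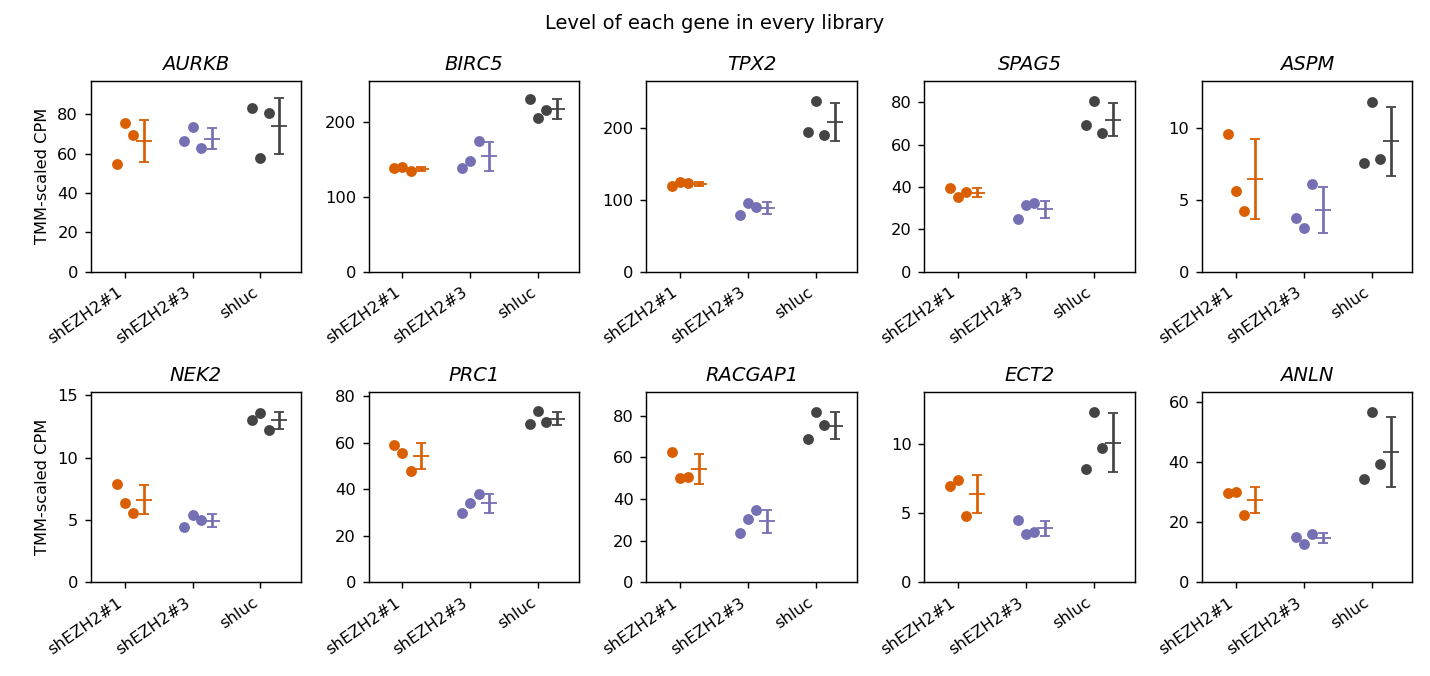
Level of each gene in every library, as CPM scaled by TMM (y axes start at 0), for shEZH2#1, shEZH2#3 and shluc; points are libraries and bars are the mean ± SD (n = 3). In 8 of the 10 panels all 6 libraries with a hairpin against EZH2 lie below all 3 shluc libraries, and in the AURKB panel the groups overlap.

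Among the passenger complex genes, AURKB was the member that passed in no comparison. AURKB, the kinase of the complex (chromosome 17, 8204733 to 8210600, minus strand, 9 exons; GENCODE 29, GRCh38), had 54.5, 75.6 and 69.4 CPM with shEZH2#1 and 66.5, 73.4 and 62.7 CPM with shEZH2#3. Its shluc libraries had 83.3, 57.7 and 80.9 CPM. The groups overlapped, and shluc replicate 2 was the lowest of its group for AURKB although it was the highest for 8 of the other genes. The log2 fold change of AURKB was -0.15 ± 0.17 (SE, adjusted p = 0.554) for shEZH2#1 and -0.13 ± 0.17 (adjusted p = 0.536) for shEZH2#3. With an offset for GC content and length, described below, AURKB passed as lower with both hairpins.

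BIRC5, the survivin subunit that docks the complex on chromatin (chromosome 17, 78214186 to 78225636, plus strand, 5 exons), fell with both hairpins. It had 138, 140 and 134 CPM with shEZH2#1 and 138, 148 and 175 CPM with shEZH2#3, against 231, 205 and 216 CPM with shluc. All 6 libraries with a hairpin against EZH2 lay below every shluc library. BIRC5 fell by 0.66 ± 0.14 on the log2 scale with shEZH2#1 (adjusted p = 0.00393), leaving 63.3% of the shluc mean. With shEZH2#3 it fell by 0.50 ± 0.14 (adjusted p = 0.00942), leaving 70.7%.

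The other passenger genes and partners were a list of 8, of which 7 were tested. With shEZH2#1, 5 of them fell, and with shEZH2#3, 3 fell (71.4% and 42.9%, against 7.89% and 19.8% of all genes). CDCA8, the borealin subunit, averaged 45.3 CPM with shEZH2#1 and 43.2 CPM with shEZH2#3, against 70.4 CPM with shluc. CDCA8 fell by 0.64 ± 0.14 (adjusted p = 0.00434) and fell by 0.70 ± 0.14 (adjusted p = 0.000757). The kinases BUB1 and HASPIN, which write the histone marks that bring the complex to centromeres, fell with both hairpins as well. BUB1 fell by 0.60 ± 0.17 (adjusted p = 0.0219) with shEZH2#1 and fell by 1.54 ± 0.18 (adjusted p = 9.09e-06) with shEZH2#3. INCENP, the scaffold, was picked out after its values were seen, because it completes the complex. INCENP fell by 0.67 ± 0.15 with shEZH2#1 (adjusted p = 0.00373). It had a log2 fold change of -0.34 ± 0.15 with shEZH2#3 (adjusted p = 0.063).

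The spindle assembly genes TPX2 and SPAG5 and the centrosome kinase NEK2 fell with both hairpins, with no library overlapping shluc. TPX2, the activator of Aurora A (chromosome 20, 31739271 to 31801805, plus strand, 19 exons), had 119, 125 and 123 CPM with shEZH2#1 and 79.5, 95.8 and 90.2 CPM with shEZH2#3. Its shluc libraries had 195, 238 and 190 CPM. TPX2 fell by 0.77 ± 0.15 with shEZH2#1 (adjusted p = 0.00149) and fell by 1.23 ± 0.15 with shEZH2#3 (adjusted p = 1.05e-05).

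SPAG5, or astrin, which steadies kinetochore microtubules (chromosome 17, 28577565 to 28599279, minus strand, 24 exons), had 39.3, 35.1 and 37.6 CPM with shEZH2#1 and 24.7, 31.4 and 32.2 CPM with shEZH2#3. With shluc it had 69.3, 80.6 and 65.6 CPM. The knockdown libraries thus held 51.9% and 41.0% of the shluc mean. SPAG5 fell by 0.95 ± 0.15 (adjusted p = 0.000455) and fell by 1.29 ± 0.15 (adjusted p = 1e-05). A read-through gene spans SPAG5 in the annotation and had 0 to 10 counts per library.

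NEK2 (chromosome 1, 211658657 to 211675630, minus strand, 8 exons), the kinase that loosens the linker between centrosomes, had 7.86, 6.4 and 5.59 CPM with shEZH2#1 and 4.4, 5.42 and 4.97 CPM with shEZH2#3. With shluc, NEK2 had 13.0, 13.6 and 12.2 CPM, all above both other groups. NEK2 fell by 0.96 ± 0.18 with shEZH2#1 (adjusted p = 0.00146), the lowest value of the 10 genes with that hairpin, next to SPAG5. With shEZH2#3 it fell by 1.39 ± 0.19 (adjusted p = 2.53e-05). The pseudogenes NEK2P4 and NEK2P2 had 0 counts.

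ASPM, a spindle pole protein (chromosome 1, 197084128 to 197146694, minus strand, 28 exons), was low, and its libraries were widely spread. It had 9.56, 5.62 and 4.19 CPM with shEZH2#1 and 3.72, 3.06 and 6.08 CPM with shEZH2#3, against 7.51, 11.8 and 7.81 CPM with shluc. The shEZH2#1 libraries overlapped shluc, and the shEZH2#3 libraries lay below it. Its value of -0.48 ± 0.28 with shEZH2#1 missed the threshold (adjusted p = 0.247). ASPM fell by 1.07 ± 0.29 with shEZH2#3 (adjusted p = 0.00623). Without shluc replicate 2 the ASPM value with shEZH2#3 was -0.84 (adjusted p = 0.0523). Counts of ASPM were 49 to 296 per library.

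Of the other spindle assembly genes, 24 were tested. With shEZH2#1, 6 fell and 1 rose, and with shEZH2#3, 15 fell and 1 rose. Lower calls were 25.0% and 62.5% of this list, against 7.89% and 19.8% of all genes. Higher calls were 4.17% with each hairpin, against 11.2% and 24.4%. AURKA, the kinase that TPX2 activates, had 33.9, 33.3 and 28.1 CPM with shEZH2#1 and 20.8, 26.1 and 23.8 CPM with shEZH2#3, against 55.9, 62.3 and 56.3 CPM with shluc. AURKA fell by 0.87 ± 0.15 (adjusted p = 0.000683) and fell by 1.30 ± 0.15 (adjusted p = 8.28e-06). The motor KIF11, which slides antiparallel microtubules apart, had log2 fold changes of -0.66 and -1.37 and fell with each hairpin. CKAP5, a microtubule polymerase (-0.58 and -1.31), and CLTC, the clathrin heavy chain that also bridges spindle fibres (-0.51 and -1.23), fell with each as well. Of 14 tested spindle pole and astrin-partner genes other than SPAG5 and ASPM, none fell and 1 rose with shEZH2#1 (7.14%, against 11.2% of all genes). With shEZH2#3, 8 fell (57.1%, against 19.8% of all genes) and 1 rose (7.14%, against 24.4%). The most abundant of these were CALM3, at 0.11 and 0.08 (adjusted p = 0.657 and 0.704), and DYNLL1, which missed the threshold with shEZH2#1 (-0.43, adjusted p = 0.0642) and fell by 0.52 with shEZH2#3 (adjusted p = 0.0125). Of 13 centrosome linker and NEK kinase genes other than NEK2, 4 rose and 2 fell with shEZH2#1. With shEZH2#3 the counts were 3 higher and 2 lower. The shares with shEZH2#1 were 30.8% higher and 15.4% lower, against 11.2% and 7.89% of all genes. With shEZH2#3 they were 23.1% and 15.4%, near the 24.4% and 19.8% of all genes. In this list the linker proteins CROCC (0.78 with each hairpin) and LRRC45 (0.58 and 0.93) rose, and so did the phosphatase subunit PPP1CA (0.80 and 0.66), whereas PPP1CC fell (-0.46 and -0.76).

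The midzone and cleavage genes PRC1, RACGAP1, ECT2 and ANLN fell with shEZH2#3 to between 33.6% and 48.3% of the shluc mean. With shEZH2#1, they held 63.1% to 77.1% of it. PRC1, the bundler of midzone microtubules (chromosome 15, 90966038 to 90995629, minus strand, 14 exons), had 59.0, 55.6 and 48.0 CPM with shEZH2#1 and 29.9, 34.2 and 37.8 CPM with shEZH2#3. With shluc, PRC1 had 68.2, 73.6 and 69.0 CPM. No library of one group overlapped another group. Even so, the PRC1 log2 fold change of -0.38 ± 0.15 with shEZH2#1 missed the threshold (adjusted p = 0.0769), and that of -1.05 ± 0.15 with shEZH2#3 passed it (adjusted p = 3.76e-05). An antisense gene, PRC1-AS1, had at most 7.07 counts in a library.

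RACGAP1, a subunit of centralspindlin (chromosome 12, 49976923 to 50033136, minus strand, 19 exons), had 62.6, 50.1 and 50.5 CPM with shEZH2#1 and 23.5, 30.2 and 34.5 CPM with shEZH2#3, against 68.7, 81.7 and 75.4 CPM with shluc. The 3 groups did not overlap. RACGAP1 fell by 0.47 ± 0.16 with shEZH2#1 (adjusted p = 0.0474) and fell by 1.36 ± 0.16 with shEZH2#3 (adjusted p = 1.1e-05). Its call with shEZH2#1 was lost with RLE scaling (adjusted p = 0.0646) and when any of 6 libraries was left out, those being shEZH2#1 replicates 2 and 3, shEZH2#3 replicate 2 and each shluc library (adjusted p = 0.0567 to 0.183).

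ECT2, the exchange factor that activates RhoA (chromosome 3, 172750682 to 172821474, plus strand, 25 exons), had 6.96, 7.37 and 4.78 CPM with shEZH2#1 and 4.52, 3.49 and 3.65 CPM with shEZH2#3. It had 8.15, 12.3 and 9.73 CPM with shluc, above all other libraries. ECT2 fell by 0.66 ± 0.22 with shEZH2#1 (adjusted p = 0.0382) and fell by 1.37 ± 0.22 with shEZH2#3 (adjusted p = 0.000125). Without shluc replicate 2 the value with shEZH2#1 was -0.50 (adjusted p = 0.17), and without shEZH2#1 replicate 1, 2 or 3 the adjusted p was 0.0649, 0.0573 and 0.186.

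ANLN, the ring scaffold (chromosome 7, 36389806 to 36453791, plus strand, 24 exons), had 29.6, 30.1 and 22.4 CPM with shEZH2#1 and 15.1, 12.7 and 15.9 CPM with shEZH2#3. With shluc it had 34.4, 56.4 and 39.3 CPM, and the 3 groups did not overlap. ANLN fell by 0.66 ± 0.19 with shEZH2#1 (adjusted p = 0.017) and fell by 1.57 ± 0.19 with shEZH2#3 (adjusted p = 1.07e-05), the largest log2 fall of the 10 genes with that hairpin. Without shluc replicate 2 the value with shEZH2#1 was -0.44 (adjusted p = 0.096), and without shEZH2#1 replicate 3 it was -0.54 (adjusted p = 0.111). KIAA0895 overlaps 320 bases of ANLN on the opposite strand and had 55 to 240 counts; the strand setting of the counting is not known.

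**Figure D2:**
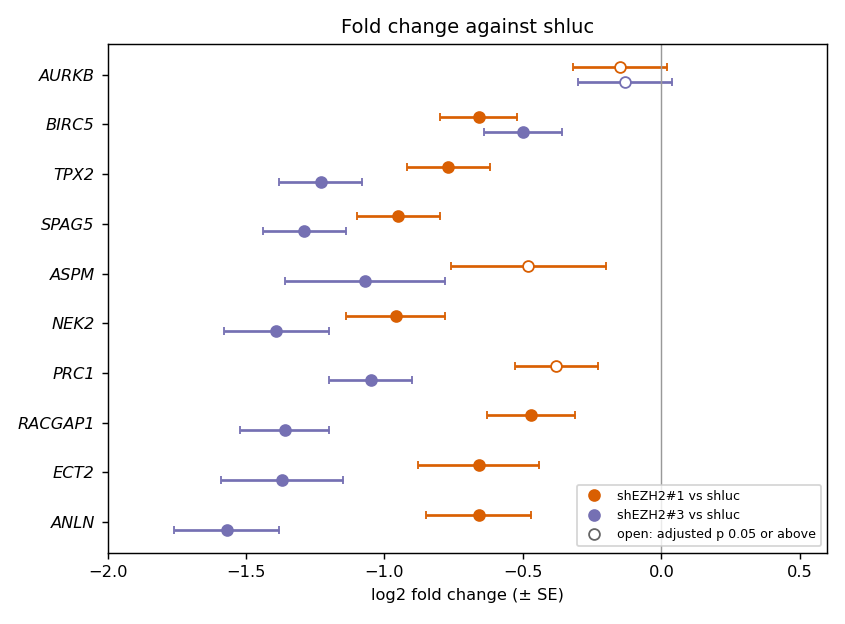
Log2 fold change (x axis, ± SE) of each gene against shluc for shEZH2#1 and shEZH2#3; filled points passed an adjusted p below 0.05 and open points did not. All 20 values lie below 0, and PRC1 and ASPM with shEZH2#1 and AURKB with both hairpins are open.

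Among 8 other central spindle genes, 1 fell with shEZH2#1 and 5 fell with shEZH2#3 (12.5% and 62.5%, against 7.89% and 19.8% of all genes). KIF20A, a midzone motor, had 47.0, 48.9 and 47.2 CPM with shEZH2#1 and 24.4, 33.3 and 38.1 CPM with shEZH2#3, against 93.0, 101 and 75.9 CPM with shluc. KIF20A fell by 0.92 ± 0.17 (adjusted p = 0.00109) and fell by 1.49 ± 0.17 (adjusted p = 7.46e-06). KIF23, the motor that pairs with RACGAP1 in centralspindlin, and KIF4A, the midzone motor that binds PRC1, were picked out after their values were seen. KIF23 averaged 14.1 CPM with shEZH2#1 and 6.44 CPM with shEZH2#3, against 15.9 CPM with shluc. Its value of -0.17 ± 0.21 with shEZH2#1 missed the threshold (adjusted p = 0.619). KIF23 fell by 1.30 ± 0.22 with shEZH2#3 (adjusted p = 0.000169). KIF4A had -0.02 ± 0.18 with shEZH2#1 (adjusted p = 0.955) and fell by 1.11 ± 0.18 with shEZH2#3 (adjusted p = 0.000136).

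Of 20 tested contractile ring and RhoA genes, 2 fell and 1 rose with shEZH2#1, whereas with shEZH2#3 the counts were 8 lower and 4 higher. With shEZH2#1 the 10.0% lower was near the 7.89% of all genes. SEPTIN11, a ring septin, fell by 0.85 on the log2 scale with each hairpin (adjusted p = 0.0102 and 0.00409). DIAPH1, an actin-nucleating formin, fell as well (-0.72 and -0.54; adjusted p = 0.00926 and 0.0207). RHOC, a relative of RhoA, rose by 0.96 and 0.71 (adjusted p = 0.00112 and 0.00352). Of 17 abscission genes, 1 fell and 2 rose with shEZH2#1, whereas with shEZH2#3 the counts were 6 lower and 1 higher. The abscission shares with shEZH2#1, 5.88% lower and 11.8% higher, were near those of all genes, 7.89% and 11.2%. With shEZH2#3 they were 35.3% and 5.88%, against 19.8% and 24.4%. ZFYVE19, which delays abscission, rose by 0.91 and 0.87 (adjusted p = 0.000828 and 0.000354). TSG101, an ESCRT subunit, fell (-0.53 and -0.57; adjusted p = 0.0207 and 0.00568).

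Over the 7 spindle and cytokinesis lists together, 103 genes other than the 10 were tested. With shEZH2#1, 17 fell and 9 rose, and the list's median was -0.25 on the log2 scale. With shEZH2#3, 47 fell and 10 rose, with a median of -0.52. Lower calls made up 16.5% and 45.6% of these lists, against 7.89% and 19.8% of all genes. A further list held 23 tested kinetochore and checkpoint genes, among them BUB1, which is also in the passenger list. Of these, 1 (BUB1) fell and 1 rose with shEZH2#1, whereas with shEZH2#3 the counts were 16 lower and 1 higher. With shEZH2#1 the shares, 4.35% lower and 4.35% higher, were below the 7.89% and 11.2% of all genes. With shEZH2#3 they were 69.6% and 4.35%, against 19.8% and 24.4% of all genes. MAD1L1, a checkpoint protein, was the gene that rose with each hairpin (0.54 and 0.64).

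**Figure D3:**
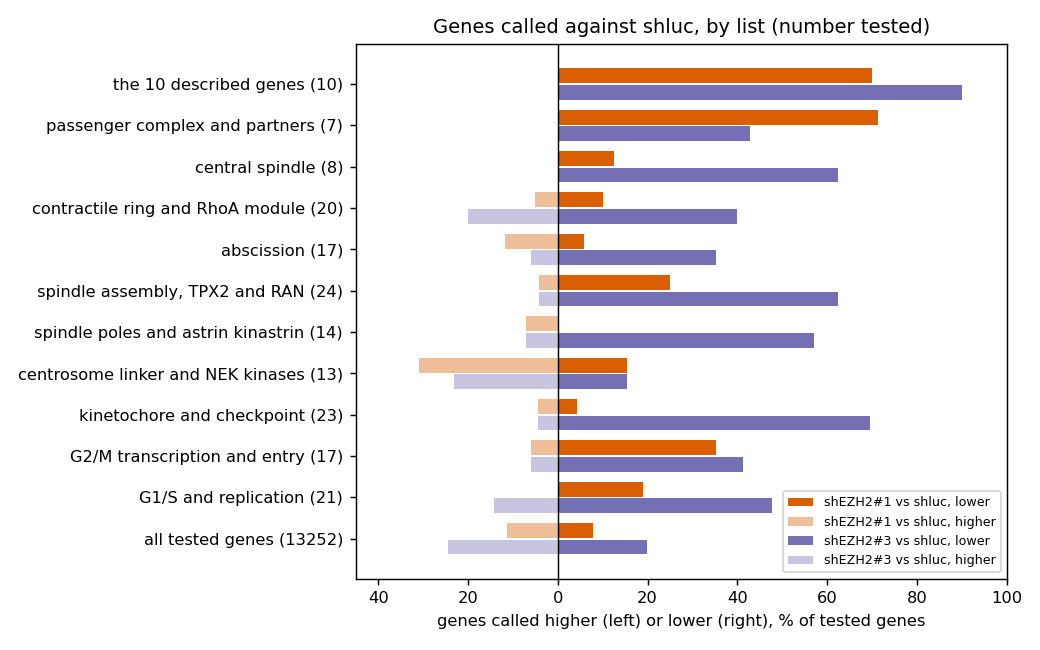
Share of tested genes (x axis, %) called lower (right) or higher (left) against shluc, by gene list, for shEZH2#1 and shEZH2#3; the number tested stands beside each list. The 10 described genes have 7 and 9 called lower and none higher. The lists of related genes leave these 10 out. The centrosome linker list has 4 and 3 called higher (30.8% and 23.1%, against 11.2% and 24.4% of all tested genes).

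The lists of other cell cycle genes moved as follows. Of 17 G2/M transcription and entry genes, 6 fell and 1 rose with shEZH2#1, whereas with shEZH2#3 the counts were 7 lower and 1 higher. Lower calls were 35.3% and 41.2% of this list, against 7.89% and 19.8% of all genes. Higher calls were 5.88% with each hairpin, against 11.2% and 24.4%. The mitotic cyclin CCNB1 (-0.71 and -1.37), its kinase CDK1 (-0.61 and -1.30), CCNA2 (-0.53 and -1.23) and CCNB2 (-0.49 and -1.19) fell with each hairpin. FOXM1 and MYBL2, transcription factors of G2/M promoters, were picked out after their values were seen. FOXM1 averaged 102 ± 9.33 CPM with shEZH2#1 and 139 ± 11.3 CPM with shEZH2#3, against 140 ± 16.9 CPM with shluc (SD, n = 3), and it fell by 0.46 with shEZH2#1 (adjusted p = 0.0364). Its value with shEZH2#3 was -0.01 (adjusted p = 0.977). MYBL2 rose by 0.57 with shEZH2#1 (adjusted p = 0.0197). Its value with shEZH2#3 was 0.26 (adjusted p = 0.19).

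Of 21 tested G1/S and replication genes, 4 fell with shEZH2#1 and none rose, while 10 fell and 3 rose with shEZH2#3. Lower calls were 19.0% and 47.6% of this list, against 7.89% and 19.8% of all genes. Higher calls with shEZH2#3 were 14.3%, against 24.4%. RRM1, RRM2 and TYMS, enzymes of deoxynucleotide supply, fell with both hairpins, with values of -0.55 to -0.49 with shEZH2#1 and -1.03 to -0.50 with shEZH2#3. MKI67, the proliferation antigen, averaged 81.9 CPM with shEZH2#1 and 63.3 CPM with shEZH2#3, against 175 CPM with shluc, and fell (-1.10 and -1.47; adjusted p = 0.000674 and 1.8e-05). CDKN1A, which encodes p21 and halts the cell cycle, rose to 225 CPM with shEZH2#1 and 283 CPM with shEZH2#3, against 140 CPM with shluc (log2 fold change 0.68 and 1.02; adjusted p = 0.00427 and 6.57e-05). E2F1, a G1/S transcription factor, rose by 0.70 and 0.83.

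The 2 hairpins differed from each other for 5 of the 10 genes, each higher with shEZH2#1 than with shEZH2#3, where 25.0% of all tested genes were called, 9.46% higher with shEZH2#1 and 15.5% lower. With upper quartile scaling 7 of the 10 genes were called, all higher with shEZH2#1, and the split over all genes was 16.7% higher and 10.6% lower. In 7 genes every shEZH2#1 library lay above every shEZH2#3 library, as for 19.7% of all genes. The log2 difference was 0.91 ± 0.19 for ANLN (SE, adjusted p = 0.00169), 0.89 ± 0.16 for RACGAP1 (adjusted p = 0.000587), 0.72 ± 0.23 for ECT2 (adjusted p = 0.027), 0.68 ± 0.15 for PRC1 (adjusted p = 0.00242) and 0.46 ± 0.15 for TPX2 (adjusted p = 0.0262). All 4 midzone and cleavage genes are among them, but such differences were not confined to these genes. Outside the 10, 12 of 23 kinetochore and checkpoint genes were higher with shEZH2#1 and none was lower. Of 14 spindle pole and astrin-partner genes, 7 were higher and none was lower. Of 24 spindle assembly genes, 9 were higher and 1 was lower. Of 8 other central spindle genes, 3 were higher and none was lower. Of 20 other ring and RhoA genes, none was higher and 7 were lower. Over the 10 genes the difference had a Spearman correlation of -0.7 with GC content, which is described below. NEK2 (0.43 ± 0.19, adjusted p = 0.113), SPAG5 (0.34 ± 0.15, adjusted p = 0.109) and ASPM (0.59 ± 0.30, adjusted p = 0.153) did not pass. BIRC5 (-0.16 ± 0.14, adjusted p = 0.449) and AURKB (-0.02 ± 0.17, adjusted p = 0.939) were the members with values below 0. The ECT2 difference was lost with limma-voom (adjusted p = 0.0518) and when any of 4 of the 6 libraries was left out, those being shEZH2#1 replicates 1 and 2 and shEZH2#3 replicates 2 and 3 (adjusted p = 0.077 to 0.12). The TPX2 difference was lost when any of 5 of the 6 libraries of these groups was left out (adjusted p = 0.0505 to 0.0954). Without shEZH2#1 replicate 1 or replicate 2, the count of 5 became 3, where 4.69% and 5.73% of all genes were called higher with shEZH2#1. EZH2 itself had a log2 difference of 0.02 ± 0.19 between the hairpins (adjusted p = 0.943).

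Across libraries, the summed CPM of the 10 genes was 526, 531 and 499 with shEZH2#1 and 390, 438 and 463 with shEZH2#3, against 779, 831 and 766 with shluc. The 3 groups did not overlap in this sum. On log2 CPM centred per gene, the members' mean was 0.08, -0.01 and -0.21 with shEZH2#1, -0.63, -0.55 and -0.39 with shEZH2#3, and 0.49, 0.70 and 0.52 with shluc. Within groups, shEZH2#1 replicate 3 was the lowest of its group for 6 of the 10 genes, shEZH2#3 replicate 1 for 6, and shluc replicate 2 was the highest of its group for 8.

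Each gene was also set against the mean centred profile of the other 9, as the root mean square difference over the 9 libraries on the log2 scale. PRC1 (0.124) and TPX2 (0.138) lay closest to the others, and AURKB (0.536) lay farthest, after ASPM (0.348) and BIRC5 (0.343). Among 8209 other genes with a mean of at least 5 CPM, the profiles nearest to the members' mean were FSTL1 (0.0374), BRAP (0.0835), TXNRD1 (0.0884), HIF1A (0.0935) and TARDBP (0.094), again over 9 libraries.

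Per length of the longest transcript, the members' levels spanned a wide range. In shluc, BIRC5 led with 80.1 ± 4.92 CPM per kb (SD, n = 3), followed by AURKB at 59.0 ± 11.3 and TPX2 at 57.6 ± 7.34 CPM per kb. Next came RACGAP1 at 23.3, SPAG5 at 17.8, PRC1 at 17.2, ANLN at 9.06, NEK2 at 6.08, ECT2 at 2.28 and ASPM at 0.83 CPM per kb. Neighbours whose shluc libraries overlapped were AURKB with TPX2 and SPAG5 with PRC1. With shEZH2#1, AURKB stood first at 53.0 ± 8.65 and BIRC5 next at 50.7 ± 1.18 CPM per kb, with overlapping libraries. With shEZH2#3, BIRC5 had 56.7 ± 7.01 and AURKB 53.9 ± 4.34 CPM per kb, again overlapping, and TPX2 had 24.5 CPM per kb. In both knockdown groups PRC1 stood above SPAG5, at 13.3 and 9.24 CPM per kb with shEZH2#1 and at 8.30 and 7.28 CPM per kb with shEZH2#3, where the libraries overlapped.

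**Figure D4:**
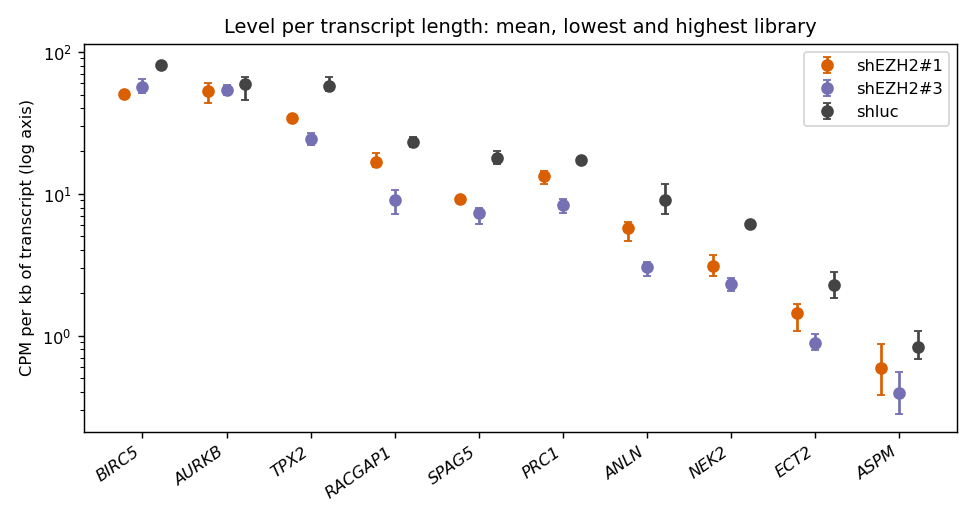
Level per kb of the longest transcript (y axis, CPM per kb, log axis) of each gene in shEZH2#1, shEZH2#3 and shluc; points are means of 3 libraries and bars run between the lowest and highest library. BIRC5 is highest and ASPM lowest in shluc, and the AURKB bars of the 3 groups overlap.

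GC content moved with the groups and is given here because it touches every value above. Over 12949 tested genes, transcript GC content and log2 fold change had a Spearman correlation of 0.47 for shEZH2#1 and 0.69 for shEZH2#3, so GC-poor genes tended to be lower; genes are not independent replicates. Within single libraries, the correlation of centred log2 CPM with GC content was -0.25, 0.04 and 0.25 with shEZH2#1, 0.37, 0.64 and 0.51 with shEZH2#3, and -0.39, -0.69 and -0.52 with shluc. The members' transcripts had a median GC content of 45.3%, against 50.3% over all tested genes. ASPM was lowest at 37.1%, then ECT2 at 38.0%, ANLN at 40.03% and NEK2 at 41.8%. RACGAP1 had 43.9%, TPX2 46.8%, PRC1 48.1%, SPAG5 51.3%, BIRC5 52.2% and AURKB 55.6%. Over the 10 genes alone the Spearman correlation of GC content and log2 fold change was 0.18 for shEZH2#1 and 0.66 for shEZH2#3. For shEZH2#1 against shEZH2#3 it was -0.7 over the 10 genes and -0.41 over the 12949 genes.

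A fit with a smooth of GC content and length per library as an offset was therefore set beside the main values. In that fit 5 of the 10 genes passed as lower with shEZH2#1 and 9 passed as lower with shEZH2#3, where 10.4% and 11.6% of all genes did. The members' medians were -0.36 and -0.85, against -0.01 and 0 over all genes. With shEZH2#1 the genes that passed were SPAG5 (-0.79), NEK2 (-0.79), BIRC5 (-0.59), TPX2 (-0.52) and AURKB (-0.39, adjusted p = 0.0321). ANLN (-0.33, adjusted p = 0.0697), ECT2 (-0.34, adjusted p = 0.165) and RACGAP1 (-0.23, adjusted p = 0.216) no longer passed with that hairpin. With shEZH2#3, SPAG5 had -1.28, ANLN -0.95, TPX2 -0.92, RACGAP1 -0.90, NEK2 -0.88, PRC1 -0.82, ECT2 -0.76, BIRC5 -0.58 and AURKB -0.52 (adjusted p = 0.0057). ASPM had -0.42 there and did not pass (adjusted p = 0.246). Between the hairpins, ANLN (0.61), RACGAP1 (0.67), PRC1 (0.68), SPAG5 (0.50) and TPX2 (0.40) passed with the offset, and ECT2 (0.42, adjusted p = 0.0866) did not. In that comparison 12.6% of all genes were called higher with shEZH2#1 and 15.6% lower.

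**Figure D5:**
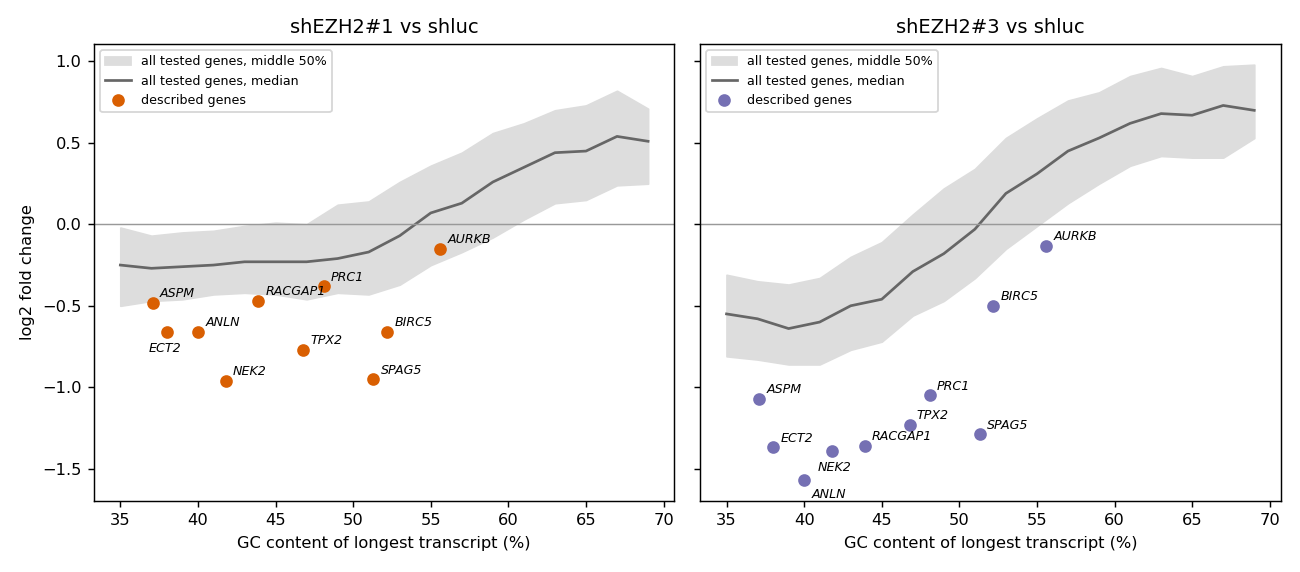
Log2 fold change against shluc (y axis) by GC content of the longest transcript (x axis, %), for shEZH2#1 and shEZH2#3; points are the 10 genes, the line is the median of all tested genes in bins of GC content and the band holds their middle 50%. Every point lies below the line of the panel it is in, and the line rises with GC content in both panels.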

How the data were processed

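RNA was measured by polyadenylated RNA sequencing with dUTP-stranded libraries, per the labels' protocols. The submitters' processing notes name fastp, HISAT2, StringTie and GRCh38. The sources used here do not say how reads were counted, or on which annotation and strand. The authors deposited estimated counts for each Ensembl gene, not normalized: 14.7 to 18.5% of nonzero values carry decimals. The 9 single-library files held the same values as the series table, and 0 columns were left unused. Replicates differed by more than counting noise (chi-square per degree of freedom 14.5 to 76.9).

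Counts were rounded, scaled by TMM, filtered with filterByExpr on the 3 groups and fitted with edgeR 4.0.16 (R 4.3.3) by quasi-likelihood with a mean per group over all 9 libraries. P-values were adjusted by Benjamini-Hochberg over 13252 genes, with a threshold of 0.05. The SE is the unshrunk log2 fold change divided by the square root of F. Each gene's longest GENCODE 29 transcript gave its GC content and length. The tests were tried on simulated data. Symbols matched 51996 identifiers in a naming table and 342 more in GENCODE 29. A PRC1-overlapping gene, AC068831.7, was not used here.

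The members, gene lists and tests were chosen with earlier results of these data known. Named genes were the 10 members, EZH2, CDKN1A, MKI67 and E2F1, up to 4 genes per list called the same way with both hairpins by size of the mean fold change (or the 2 most abundant), and the 5 nearest profiles; a gene so chosen is not reported here. Alternatives were scaling by RLE or by the upper quartile, the tools DESeq2 1.42.0 and limma-voom (limma 3.58.1), other filters, a minimum fold, the GC and length offset, the replicate number as a block, fits of only the groups compared, a fit without 2 abundant unnamed genes, and libraries left out.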

Additional observations from a re-analysis of the deposited data

Results flagged for a closer look

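The differences between the hairpins were past the threshold of the edgeR quasi-likelihood test for 5 of the 10 genes. ANLN averaged 27.4 CPM with shEZH2#1 and 14.6 CPM with shEZH2#3, a log2 difference of 0.91. RACGAP1 averaged 54.4 CPM with shEZH2#1 and 29.4 CPM with shEZH2#3, a difference of 0.89. ECT2 averaged 6.37 CPM with shEZH2#1 and 3.89 CPM with shEZH2#3, a difference of 0.72. PRC1 averaged 54.2 CPM with shEZH2#1 and 33.9 CPM with shEZH2#3, a difference of 0.68. TPX2 averaged 122 CPM with shEZH2#1 and 88.5 CPM with shEZH2#3, a difference of 0.46. EZH2 averaged 10.1 CPM with shEZH2#1 and 9.94 CPM with shEZH2#3.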

How the results depend on the processing

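With a minimum absolute log2 fold change of 1, the genes called numbered 0 for shEZH2#1 against shluc, 8 for shEZH2#3, 4 for the mean of both hairpins, 0 between the hairpins and 0 with each hairpin in the same direction (7 without that minimum, in comparisons that share the shluc libraries). Over all 13252 tested genes, 432 were called lower with each hairpin and 1059 higher, without that minimum. With each library left out in turn, the counts among the 10 genes were 4 to 7 for shEZH2#1 and 8 to 9 for shEZH2#3. They were 8 to 9 for the mean, 3 to 5 between the hairpins and 4 to 7 with each hairpin. The low of 4 came without shEZH2#1 replicate 3 or shluc replicate 2, and the low of 3 came without shEZH2#1 replicate 1 or replicate 2. Same-numbered libraries did not deviate together (0 of 9 pairs with a correlation over 0.1, -0.12 to 0.08). With the replicate number as a block, 6, 9, 9 and 5 genes were called in the 4 comparisons, against 16.7, 41.4, 33.6 and 22.2% of all genes. When the block was joined with the GC and length offset, 5, 9, 9 and 5 were called, against 16.4, 22.4, 16.6 and 26.4% of all genes. Between the hairpins, where AURKB and BIRC5 missed the threshold throughout, AURKB turned positive with upper quartile scaling (0.14), a filter of 1 CPM (0.00), only the groups compared (0.01), the GC and length offset (0.13, also with the block), the 2 abundant genes removed (0.03), without shEZH2#1 replicate 1 (0.11) and without shEZH2#3 replicate 2 (0.04), and BIRC5 turned positive with upper quartile scaling (0.01) and with the block and offset (0.00). The share of all genes called was 19.0, 44.2, 36.3 and 25.0% in these comparisons, but 12.4, 26.3, 22.2 and 15.0% with no filter, 3.73, 11.6, 4.31 and 6.93% with the minimum fold, and 24.2% for shEZH2#3 and 18.7% for the mean with the offset. With libraries left out it was 8.54 to 22.6% for shEZH2#1, 31.6 to 43.0% for shEZH2#3, 19.7 to 36.2% for the mean and 14.4 to 29.3% between the hairpins. Upper quartile scaling put the median of all genes at -0.18 and that of the 10 genes at -1.44 for shEZH2#3 against shluc. Of 220 single-gene values for shEZH2#1 under the alternatives, 32 lost their call and 3 gained one. For shEZH2#3, 5 of 220 lost it and 2 gained one, and for the mean 9 of 210 lost it and 2 gained one. Between the hairpins, 17 of 220 lost it, 6 gained one and 10 changed sign. These totals include genes that had no call to lose. The causes were not tested.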

Other observations

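Contractile ring genes that differed between the hairpins were picked out after their values were seen. MYH9, a heavy chain of the ring's myosin, had 537, 567 and 601 CPM with shEZH2#1 and 924, 1240 and 1090 CPM with shEZH2#3. With shluc, MYH9 had 834, 752 and 652 CPM. MYH9 rose by 0.54 ± 0.16 with shEZH2#3 (edgeR adjusted p = 0.0105) whereas the shEZH2#1 value of -0.39 ± 0.16 missed the threshold (adjusted p = 0.0878). Its log2 difference between the hairpins was -0.93 ± 0.16 (adjusted p = 0.000288). Of the other heavy chains listed, MYH14 rose by 0.91 with shEZH2#3 (adjusted p = 0.000434). MYH10 had low means of 0.619 CPM with shEZH2#1 and 0.584 CPM with shEZH2#3, against 1.41 CPM with shluc. MYH10 fell by 1.27 with shEZH2#3 (adjusted p = 0.0314), and its shEZH2#1 value of -1.18 missed the threshold (adjusted p = 0.0792). Its difference between the hairpins, 0.09, was not called (adjusted p = 0.919). ARHGEF2, an exchange factor for RhoA, averaged 84.7 CPM with shEZH2#1 and 178 CPM with shEZH2#3, against 99.9 CPM with shluc, with a difference between the hairpins of -1.07 ± 0.16 (adjusted p = 7.17e-05). RHOA, the switch that ECT2 turns on, averaged 687 CPM with shEZH2#1 and 1020 CPM with shEZH2#3, against 876 CPM with shluc, and differed between the hairpins by -0.56 ± 0.14 (adjusted p = 0.00735). Of the 20 tested ring and RhoA genes outside the 10 described above, 7 were lower with shEZH2#1 than with shEZH2#3 and none was higher. ANLN (0.91) and ECT2 (0.72) belong to this module too and are among the 5 of the 10 that were higher. Over all tested genes, 15.5% were lower and 9.46% higher in this comparison. The difference between the hairpins had a Spearman correlation of -0.41 with GC content over all genes, and the part of GC content here was not tested.

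The abscission scaffold CEP55 and the astrin partner KNSTRN, likewise picked out after their values were seen, passed with shEZH2#3 alone. CEP55 averaged 4.42 CPM with shEZH2#1 and 2.13 CPM with shEZH2#3, against 6.11 CPM with shluc, and its hairpins differed by 1.05 ± 0.25 (adjusted p = 0.00484). KNSTRN averaged 13.3 CPM with shEZH2#1 and 8.99 CPM with shEZH2#3, against 17.8 CPM with shluc, and its hairpins differed by 0.56 ± 0.18 (adjusted p = 0.027).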
